A study of Mus musculus and Rattus norvegicus with 2 samples.

Results

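tRNA-Lys-CTT and tRNA-Lys-TTT are the 2 cytosolic lysine tRNAs of mammals, named by their anticodons, and sperm small RNA libraries hold pieces of both that begin at the first base of the mature tRNA. Their reads were taken from the mouse and rat tables, under any deposited label, wherever the first 18 nt matched the 5′ end of one of these tRNAs with at most 1 mismatch. This gave 8917 of 691381 listed mouse reads, in 266 of 86644 sequences with a count, and 2425 of 2102735 listed rat reads, in 109 of 137388 sequences. The mouse library was made from purified cauda epididymal sperm of C57BL/6 animals aged 2 months, and the rat library from the same kind of cells of Sprague Dawley animals of 450 g described as young adults. In both, Trizol total RNA was used, the 18 to 45 nt fraction was taken and an Illumina GAIIx was run, and no other treatment is named. There was 1 library per species, and the sources used here do not say how many animals it holds, so the values below carry counting error only and no test of a species difference was possible. Intervals are exact 95% intervals (Clopper-Pearson for a share, conditional binomial for a ratio, Poisson for a count), and reads copied by PCR without molecular identifiers are not independent molecules.

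Lysine tRNAs carry lysine to the ribosome and read its AAA and AAG codons. tRNA cut in the anticodon loop, by angiogenin among other nucleases, yields a 5′ piece that starts at the first base and a 3′ piece that ends in CCA (5′ and 3′ tiRNA, for tRNA-derived stress-induced RNA), and 5′ tiRNAs are an abundant class of small RNA in mature mammalian sperm. tRNAs carry many modified bases, some of which stop the reverse transcriptase or change the base it writes.

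The 2 members and the 2 forms of CTT are shown whole, as joined from overlapping reads of both libraries, because their few differences decide how each read is assigned. Positions count from 1 at the 5′ end of the tRNA, T stands for U, and capitals mark the anticodon at bases 34 to 36.
tRNA-Lys-CTT, A29 form: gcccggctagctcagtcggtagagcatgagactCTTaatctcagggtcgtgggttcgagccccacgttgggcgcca
tRNA-Lys-CTT, G29 form: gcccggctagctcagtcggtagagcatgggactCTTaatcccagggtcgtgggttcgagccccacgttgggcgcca
tRNA-Lys-TTT: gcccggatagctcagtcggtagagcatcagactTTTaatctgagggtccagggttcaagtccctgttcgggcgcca
All 3 are 76 nt long, end in CCA and pair fully in the acceptor stem and the anticodon stem. The 2 CTT forms differ at 2 bases that pair with each other in the anticodon stem, A29G and T41C, where the first letter is that of the A29 form. The A29 form and TTT differ at 12 bases, of which 3 lie in the first 34, namely C7A, G28C and C34T. RefSeq's annotation of GRCm38.p6 names 24 mouse tRNA-Lys-CTT genes and 2 tRNA-Lys-TTT genes, and which of them made these reads cannot be told from shared sequence.

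Within the 18 bases compared, base 7 alone separates the members, so base 28 was read as a second, unused difference. Among mouse reads of at least 28 nt, 8034 of 8040 CTT reads had the G of CTT at base 28 and 780 of 782 TTT reads had the C of TTT. In the rat all 1792 CTT reads and all 222 TTT reads had the base of their own tRNA. The other 6 mouse CTT reads had the C of TTT in 4 reads, A in 1 and T in 1, and the other 2 mouse TTT reads had the G of CTT. Besides these, 4 mouse and 2 rat reads were as close to one member as to the other and entered neither.

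The sequences that hold most of the member reads are printed with base 7, and base 29 where the read reaches it, in capitals.
CTT, A29, 34 nt: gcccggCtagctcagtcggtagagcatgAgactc
CTT, A29, 33 nt: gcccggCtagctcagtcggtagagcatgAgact
CTT, A29, 32 nt: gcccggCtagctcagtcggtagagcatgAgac
CTT, G29, 32 nt: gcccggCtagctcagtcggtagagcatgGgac
CTT, G29, 30 nt: gcccggCtagctcagtcggtagagcatgGg
CTT, G29, 29 nt: gcccggCtagctcagtcggtagagcatgG
TTT, 32 nt: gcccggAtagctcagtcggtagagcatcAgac
TTT, 33 nt: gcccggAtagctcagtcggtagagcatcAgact
TTT, 23 nt: gcccggAtagctcagtcggtaga
The A29 read of 34 nt, which stops on the first base of the anticodon, had 3917 mouse reads (3795 to 4042), or 48.7% of all mouse CTT reads, and 0 rat reads. The A29 read of 33 nt had 709 mouse and 0 rat reads. These zeros cannot be read as absence in the rat, because of a limit of the rat table. Every listed read lies within 2 mismatches of a database entry, and the rat entries that took member reads and are long enough differ from the A29 form at 3 bases from 33 nt on. For TTT they differ at 5 bases at 33 nt and at 6 at 34 nt. Up to 32 nt a piRNA-labelled rat entry lets reads of both through, with 2 mismatches for A29 and 0 for TTT, and the G29 form has at most 2 mismatches at every length up to 36 nt. Each comparison between the species is therefore given both over all lengths and over reads of up to 32 nt, a limit chosen after the data had been seen. Entries that took no member read were not compared, so whether they could list the longer reads was not tested. An exact rat read over bases 31 to 64, with the T of the A29 form at base 41, was listed with 10 copies.

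tRNA-Lys-CTT was the more abundant member in both libraries. In the mouse it had 8049 reads (7874 to 8227) in 194 sequences, or 1.16% of listed reads (1.14 to 1.19). In the rat it had 1826 reads (1743 to 1912) in 58 sequences, or 0.0868% (0.0829 to 0.0909). tRNA-Lys-TTT had 868 mouse reads (811 to 928) in 72 sequences, or 0.126% (0.117 to 0.134), and 599 rat reads (552 to 649) in 51 sequences, or 0.0285% (0.0263 to 0.0309). The order of the 4 levels was thus mouse CTT, mouse TTT, rat CTT and rat TTT, and no neighbouring intervals overlapped. CTT made up 90.3% of mouse and 75.3% of rat lysine reads. Among all groups of tRNA-labelled reads that share their first 18 nt, the exact CTT start ranked 6 of 1694 mouse groups and 21 of 2245 rat groups, and the exact TTT start ranked 16 and 47. These ranks leave out piRNA-labelled member reads, which were 14.3% of rat CTT, 49.4% of rat TTT and 1.01% of mouse CTT reads.

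The mouse share of CTT was 13.4 times that of the rat (12.7 to 14.1), and that of TTT 4.41 times (3.97 to 4.90). Over reads of up to 32 nt, where both tables can list every form, the ratio was 4.08 for CTT (3.81 to 4.36) and 3.23 for TTT (2.88 to 3.62). The total also matters, since tRNA-labelled reads were 53.8% of listed mouse reads and 16.3% of listed rat reads. Per tRNA-labelled read, the ratio over all lengths was 4.06 for CTT (3.86 to 4.27) and 1.33 for TTT (1.20 to 1.48). Per tRNA-labelled read and up to 32 nt, CTT was 1.23 times higher in the mouse (1.15 to 1.32), and the interval for TTT held 1 (0.978, 0.873 to 1.09). CTT was thus above TTT in its mouse to rat ratio on every one of these scales, by a factor that shrank under the length limit, while a change of total moves both members alike.

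**Figure D1:**
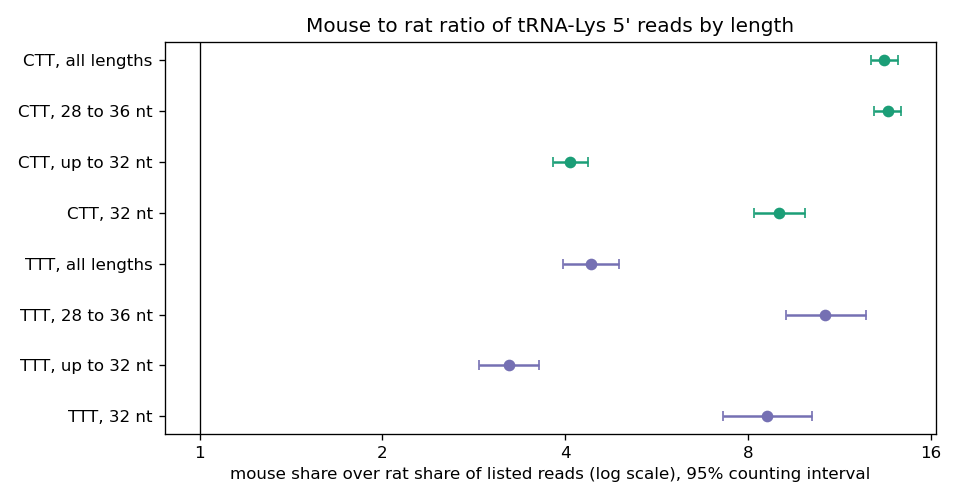
Ratio of the mouse share to the rat share of listed reads (horizontal log axis) for tRNA-Lys-CTT (green) and tRNA-Lys-TTT (purple) over 4 ranges of read length; points are ratios, bars 95% counting intervals, and the vertical line marks 1. CTT lies at 13.4 over all lengths and at 4.08 up to 32 nt, and TTT at 4.41 and 3.23.

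The balance of the members themselves differed more between lengths than between species. Over all lengths the mouse library had 9.27 CTT reads for each TTT read (8.64 to 9.96) and the rat library 3.05 (2.78 to 3.35). At 32 nt exactly, a length both members share, the mouse ratio was 3.11 (2.82 to 3.43) and the rat ratio 2.97 (2.52 to 3.52), with overlapping intervals. Among reads of 18 to 27 nt the order turned: the mouse had 9 CTT and 86 TTT reads, a ratio of 0.105 (0.0463 to 0.208), and the rat 34 and 377, a ratio of 0.0902 (0.0615 to 0.128).

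Most CTT reads had the length of a 5′ tiRNA, taken here as 28 to 36 nt, in both species. These were 99.3% of mouse CTT reads (99.1 to 99.5) and 98.1% of rat CTT reads (97.3 to 98.7). TTT gave mostly reads of this length in the mouse, 90.1% of its reads (87.9 to 92.0), but in the rat only 37.1% (33.2 to 41.1). The rat value rests on the TTT read of 32 nt, without which it was 7.82%, against 75.9% in the mouse without the same read. Shorter TTT reads of 18 to 27 nt were 9.91% of mouse TTT (8.0 to 12.1) and 62.9% of rat TTT (58.9 to 66.8). Up to 32 nt, tiRNA lengths made 86.5% of mouse TTT reads (83.6 to 89.0), so the gap between the species remains within the lengths that both tables can list. The other tRNA-labelled reads moved in the same direction, with tiRNA lengths at 96.4% for mouse and 64.7% for rat. That set leaves out reads with other labels, while members count under any label. The 303 rat TTT reads labelled tRNA were at most 27 nt long, so all rat TTT reads of tiRNA length were labelled piRNA.

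**Figure D2:**
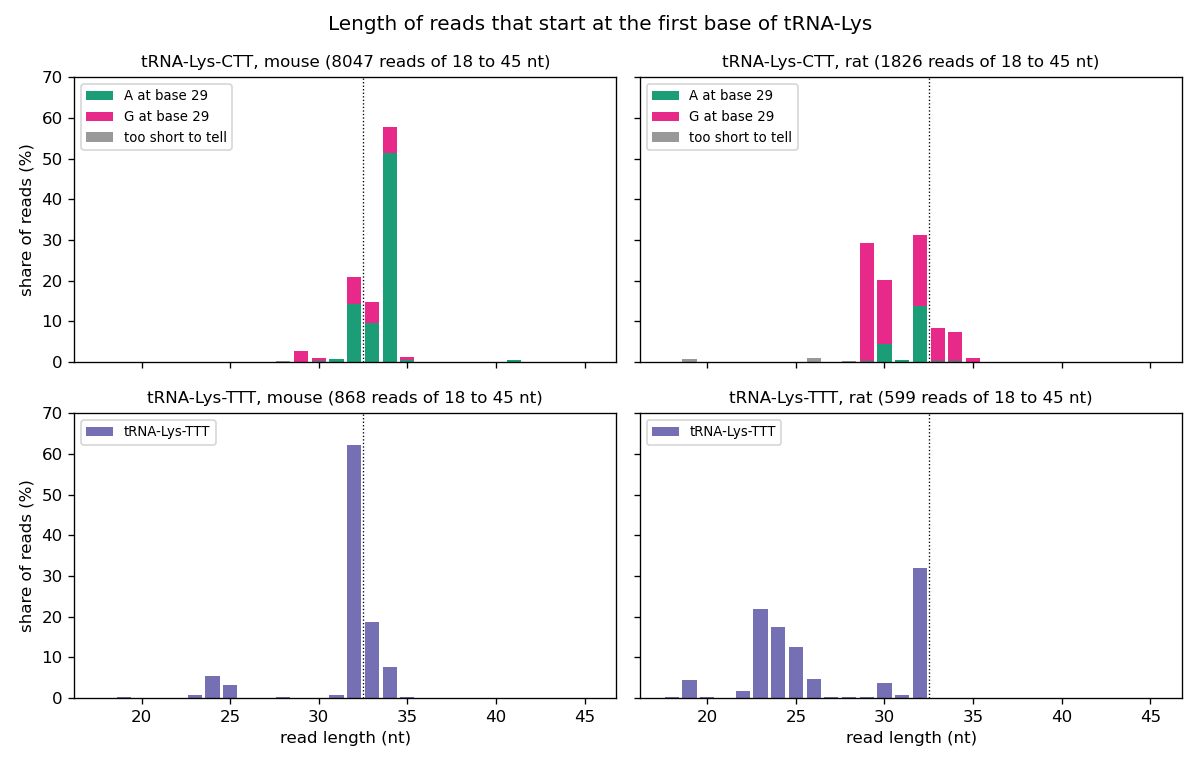
Share of each member's reads (vertical axis, percent) at each read length from 18 to 45 nt (horizontal axis) in the mouse (left) and rat (right) library, for CTT (top, coloured by base 29) and TTT (bottom); the dotted line marks the limit of 32 nt. Mouse CTT peaks at 34 nt with 57.8% of its reads, TTT peaks at 32 nt in both libraries, and rat TTT has a further group at 23 to 25 nt. In the rat, 32 nt is the longest length at which a compared entry lay within 2 mismatches of TTT.

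The short TTT reads were a few set lengths. The rat had 131 TTT reads of 23 nt, 104 of 24 nt and 75 of 25 nt, and the mouse 7, 47 and 27. The exact 23 nt sequence had 114 rat reads (94 to 137) and 4 mouse reads (1 to 10), a mouse to rat ratio of shares of 0.107. In comparison, the exact 24 nt sequence had 62 rat and 30 mouse reads and the exact 25 nt sequence 54 and 23, with ratios of 1.47 and 1.30. All these reads end within the 3′ strand of the D stem, short of the anticodon stem. Short TTT reads also carried more mismatches near their start: 21.5% of rat TTT reads of 18 to 27 nt had 1 mismatch in the first 18 bases (17.4 to 25.98) against 1.35% of those of 28 nt and over (0.280 to 3.90). In the mouse the shares were 25.6% (16.8 to 36.1) and 3.20% (2.08 to 4.68). Of the 81 mismatched short rat reads, 65 had it at bases 1 to 3, led by C3A with 28 reads.

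Ends of the longer reads fell on a few bases around the 5′ side of the anticodon. Among mouse CTT reads of at least 28 nt, 20.9% ended at base 32 (20.0 to 21.8), 14.8% at base 33 (14.1 to 15.6) and 57.9% at base 34, the first of the anticodon (56.8 to 59.0). Mouse TTT reads ended 2 bases earlier for the most part: 69.1% at base 32 (65.7 to 72.3), 20.8% at base 33 and 8.57% at base 34 (6.70 to 10.8). In the rat, 31.7% of CTT reads of this length ended at base 32, 29.9% at base 29 and 20.6% at base 30, while 86.0% of TTT reads ended at base 32 (80.8 to 90.3). The rat shares at bases 33 and 34, 8.54% and 7.59% for CTT, rest almost wholly on the G29 form, under the listing limit given above. For TTT the compared rat entries differ at 5 bases at 33 nt and at 6 at 34 nt, so the 86.0% is read only as a share among ends up to base 32. Exact rat TTT reads with later starts did pass base 32: 4 ended at base 33 and 2 covered the whole anticodon. Whether other entries could list longer member reads was not tested.

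Few listed reads crossed the anticodon. In the mouse 57 of 8049 CTT reads reached base 36 (0.708%, 0.537 to 0.917), led by a read of 41 nt with 37 copies, shown because it runs through the anticodon loop into the 3′ strand of the anticodon stem.
CTT, A29, 41 nt: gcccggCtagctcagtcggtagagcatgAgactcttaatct
In the rat 1 of 1826 CTT reads reached base 36, a G29 read. Exact rat A29 reads of that length lie 3 mismatches from the entries that took member reads, so their lack cannot be read as absence. Of 868 mouse and 599 rat TTT reads from base 1, 0 reached base 36 in either library. At 36 nt the compared entries that took member reads lay 4 mismatches from TTT for the mouse and 6 for the rat. Exact TTT reads with later starts did cover the whole anticodon, with 9 mouse and 2 rat reads. Whether other entries could list such reads from base 1 was not tested, so these zeros cannot be read as absence.

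The forms of CTT could be told apart in reads of at least 29 nt. The mouse had 6196 A29 and 1833 G29 reads, so A29 made 77.2% (76.2 to 78.1). The rat had 353 and 1434, so A29 made 19.8% (17.9 to 21.7), but rat A29 reads beyond 32 nt are barely listed. From 29 to 32 nt A29 made 60.3% of mouse reads (58.1 to 62.4) and 23.4% of rat reads (21.2 to 25.6). Taken length by length, the species differed less. At 29 nt A29 made 0.952% of mouse reads (2 of 210) and 1.12% of rat reads (6 of 536), at 30 nt 21.92% and 21.95%, and at 31 nt 87.9% and 87.5%, where the rat had 8 reads. The intervals overlapped at each of these lengths. At 32 nt they did not: A29 made 68.4% of mouse reads (66.1 to 70.7) and 44.4% of rat reads (40.2 to 48.6). The lower A29 share in the rat from 29 to 32 nt thus came together with a larger part of CTT reads at 29 and 30 nt. Of 1520 rat CTT reads up to 32 nt, 536 were of 29 nt and 369 of 30 nt. Of 2038 such mouse reads, 210 and 73 were. G29 led at these lengths in both species.

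**Figure D3:**
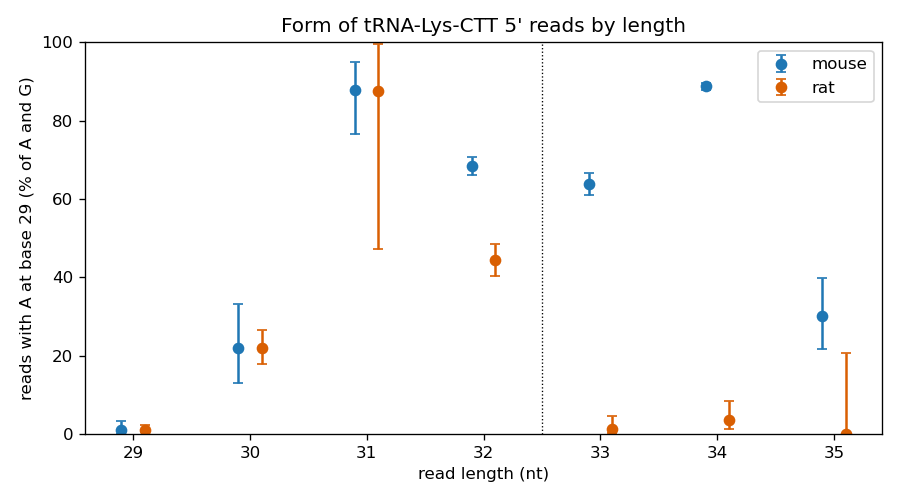
Share of CTT reads with A at base 29 (vertical axis, percent of A and G) by read length (horizontal axis) in the mouse (blue) and rat (orange) library, with exact 95% intervals. The species overlap from 29 to 31 nt and separate at 32 nt (68.4% and 44.4%). To the right of the dotted line the compared rat entries lay 3 mismatches from the A29 form.

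The forms also ended at different bases within one library. In the mouse 66.7% of A29 reads ended at base 34 (65.5 to 67.9), against 28.4% of G29 reads (26.3 to 30.5), while base 29 was the end of 0.0323% of A29 reads and 11.3% of G29 reads (9.93 to 12.9). The G29 reads of 29 nt stop on the base that defines the form. In the rat 36.96% of G29 reads stopped there (34.5 to 39.5) and 22.04% at base 32. Because G29 reads can be listed in both tables at all these lengths, they allow a comparison by length. Their mouse to rat ratio of shares was 1.19 at 29 nt (1.01 to 1.40), 0.602 at 30 nt (0.445 to 0.802), 21.3 at 31 nt (2.74 to 959, from 7 mouse reads and 1 rat read), 5.10 at 32 nt (4.43 to 5.88), 8.68 at 33 nt (7.20 to 10.5), 12.1 at 34 nt (9.95 to 14.7) and 14.1 at 35 nt (8.12 to 25.9). The ratio at 32 to 35 nt was higher than at 29 and 30 nt by more than counting error. Other tRNA-labelled reads, compared in the same way, had ratios of 0.474 at 29 nt, 4.08 at 30 nt, 5.09 at 31 nt, 6.62 at 32 nt, 4.51 at 33 nt, 27.9 at 34 nt and 37.5 at 35 nt. A higher mouse ratio at 34 and 35 nt than at 29 nt was therefore not particular to lysine.

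Of the member sequences, 37 were listed in both libraries, and they held 39.9% of mouse and 94.2% of rat member reads. Among all 3450 sequences listed in both with a mean of at least 10 RPM (reads per 1000000 listed reads), 39.4% were at least 2-fold higher in the mouse and 45.1% were so in the rat library, with a median log2 ratio of -0.37. Of 10 such CTT sequences 7 were higher in the mouse by this measure and 0 in the rat (median log2 ratio 3.30), and of 4 TTT sequences 1 was higher in each (median 0.47). Scaled to tRNA-labelled reads, where the median of all 3450 was -2.10, 24.2% of them were at least 2-fold higher in the mouse and 58.3% so in the rat library. By that scaling 6 of 10 CTT sequences led in the mouse library and 3 in that of the rat, and of 4 TTT sequences 1 and 3. The filter acts on the mean of the 2 libraries, so a sequence can pass through the library where it is high. The A29 read of 31 nt was among the CTT sequences most raised in the mouse, with 49 mouse and 7 rat reads (ratio 21.3). It passed through the mouse alone, at 70.9 RPM against 3.33 RPM in the rat. The A29 read of 32 nt had 1099 mouse reads (1035 to 1166) and 251 rat reads (221 to 284), a ratio of 13.3. The G29 read of the same length had 509 and 312 reads, a ratio of 4.96, and the TTT read of 32 nt 511 and 190, a ratio of 8.18. Lowest of these 14 member sequences was the TTT read of 23 nt, at 0.107, which passed the filter through the rat alone (54.2 RPM against 5.79 RPM in the mouse). Within CTT the lowest were the 30 nt reads, with 55 mouse and 272 rat reads for G29 (ratio 0.615) and 15 and 78 for A29 (ratio 0.585). The G29 read of 29 nt, the most abundant CTT sequence of the rat, had 504 rat and 201 mouse reads (ratio 1.21).

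Reads of the same tRNAs that begin past base 1 were few for mouse CTT and many for TTT. Among exact matches to the whole tRNA, 7641 of 7754 mouse CTT reads (98.5%) and 1758 of 2335 rat CTT reads (75.3%) began at base 1. For TTT these were 775 of 2300 mouse reads (33.7%) and 506 of 7135 rat reads (7.09%). Instead, 1395 mouse TTT reads (60.7%) and 5229 rat TTT reads (73.3%) began at base 3, and 3 sequences of 21 to 23 nt, which end at bases 23 to 25, made 1352 and 5069 of them. They are printed with base 7 of the tRNA in capitals.
TTT from base 3, 23 nt: ccggAtagctcagtcggtagagc
TTT from base 3, 22 nt: ccggAtagctcagtcggtagag
TTT from base 3, 21 nt: ccggAtagctcagtcggtaga
The read of 23 nt had 873 mouse and 2944 rat reads, that of 22 nt 442 and 1601, and that of 21 nt 37 and 524. CTT had 26 mouse and 89 rat reads from base 3, although the 2 tRNAs have the same first 6 bases. Over all exact reads, TTT stood above CTT in the rat, with 7135 against 2335. The listing limit of longer A29 reads given above may bear on that rat CTT count. CTT stood above TTT in the mouse, with 7754 against 2300.

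**Figure D4:**
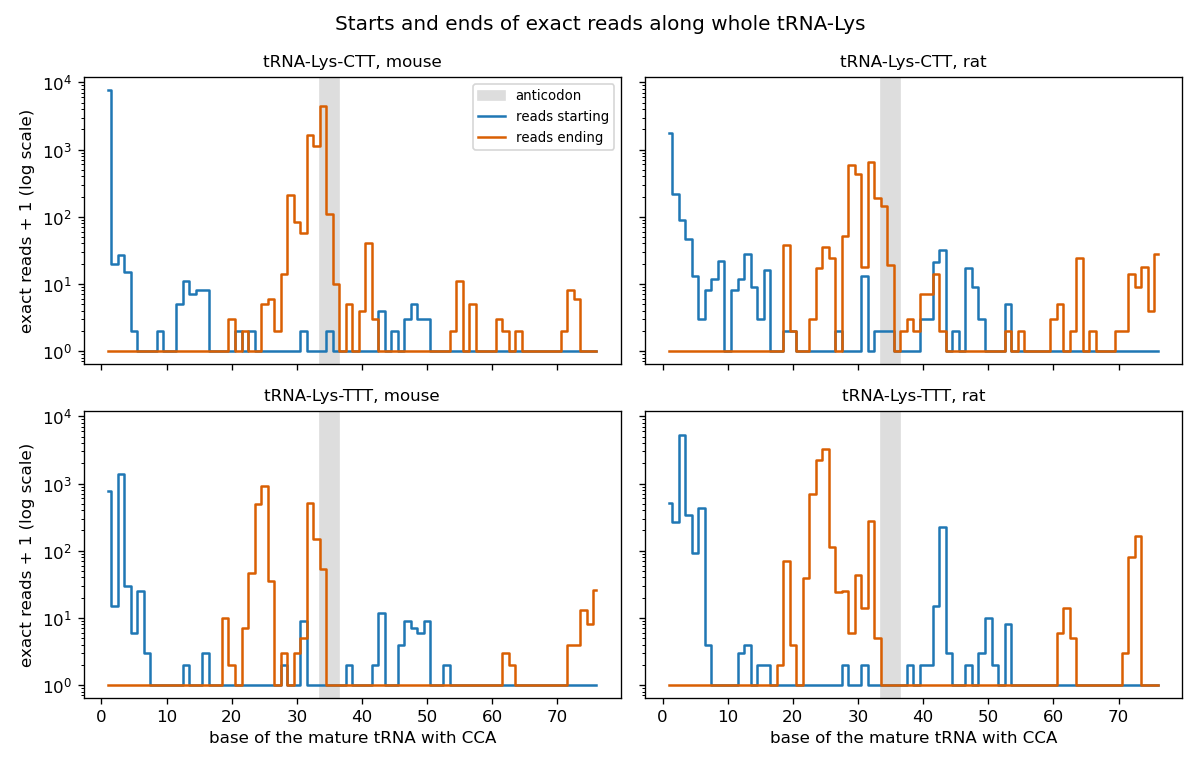
Number of exact reads, plus 1, on a log axis (vertical) that start (blue) or end (orange) at each base of the whole tRNA (horizontal axis), for CTT (top) and TTT (bottom) in the mouse (left) and rat (right); grey marks the anticodon. CTT starts peak at base 1 in both libraries, while TTT starts peak at base 3, with 1395 mouse and 5229 rat reads.

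The 3′ side of both tRNAs was thinly covered by exact reads. Exact counts leave out the reads with another base at base 58, described below, so they understate coverage of the 3′ side. Exact reads starting at base 28 or later numbered 16 for CTT and 53 for TTT in the mouse, and 101 and 268 in the rat. Against the exact reads from base 1 these exact reads were few, except for rat TTT with 268 against 506. Exact reads that kept the CCA end, as a complete 3′ tiRNA would, numbered 0 for CTT and 25 for TTT among mouse reads and 27 and 0 among rat reads. Whether the entries of each table could list such reads within 2 mismatches was not checked, so these zeros cannot be read as absence. The leading 3′ read of the rat is shown because it holds most of the exact rat TTT reads from base 28 or later. It runs from base 43 to base 73, the last base before CCA.
TTT from base 43, 31 nt: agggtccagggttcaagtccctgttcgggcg
It had 151 reads. Base 58 of cytosolic tRNAs is a known site of 1-methyladenosine, which blocks or misleads reverse transcriptase. Among reads of at least 24 nt that crossed it and matched otherwise, 71.6% of 285 rat CTT reads (66.0 to 76.7) and 53.01% of 498 rat TTT reads (48.5 to 57.5) had a base other than A there. In the mouse these were 31.6% of 19 CTT reads (12.6 to 56.6) and 48.4% of 93 TTT reads (37.9 to 59.0). The rat CTT reads had 81 A, 94 G, 109 T and 1 C. The limit of 2 mismatches may have kept other such reads from being listed, and its part in these shares was not tested.

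Single-base variants of the leading 5′ reads were gathered at a few positions. Of 4138 mouse reads within 1 base of the A29 read of 34 nt, 221 differed from it (5.34%, 4.68 to 6.07), with 50 at base 6, 49 at base 23 and 26 at base 10. The most frequent changes were G6A with 39 reads, A23C with 33 and G10A with 25. Bases 6 and 10 are sites at which some mammalian tRNAs carry N2-methylguanosine. The G10A variant, printed with bases 7 and 29 in capitals, was also listed in the rat, with 4 reads. Its unchanged parent was not listed there, under the limit given above.
CTT, A29, G10A variant, 34 nt: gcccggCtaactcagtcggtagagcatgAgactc
For the TTT read of 32 nt, 29 of 540 mouse reads (5.37%, 3.63 to 7.62) and 1 of 191 rat reads (0.524%, 0.0133 to 2.88) carried a single change. These intervals do not overlap, and the TTT read could be listed with 1 change in both tables.

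The deposited labels of the same molecules differed between the tables. In the mouse 98.99% of CTT reads and 100% of TTT reads were labelled tRNA, and the other 81 CTT reads piRNA. In the rat 14.3% of CTT reads, 73.9% of A29 reads and 49.4% of TTT reads were labelled piRNA, the small RNA class that guards the germline genome against transposons. A rat count limited to tRNA labels therefore held 1564 CTT and 303 TTT reads in place of 1826 and 599.

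The length profile of each member was set beside those of the 9 tRNA-labelled groups with the same first 18 nt and at least 500 reads in each library, by the overlap of their shares at each length from 18 to 45 nt. One of the 9 is TTT itself read from base 3, and it was not among the 3 closest to either member. The tables do not name the others, which are given by their first 18 bases. For CTT the closest was the start tccctggtggtctagtgg with a mean overlap of 44.8%, then gccgtgatcgtatagtgg with 32.5% and gcatgggtggttcagtgg with 32.1%. For TTT they were gggggtatagctcagggg with 70.9%, gggggtatagctcagtgg with 65.8% and gtttccgtagtgtagtgg with 26.6%. CTT and TTT overlapped each other by 44.7% (mouse) and 37.7% (rat), so 2 starts were closer to TTT in length than CTT was. Between the libraries, the overlap was 41.7% for CTT and 42.9% for TTT. These overlaps describe 2 libraries whose depth and listing limits differ. The 9 starts hold tRNA-labelled reads only, while the members count under any label. The part of that difference in the overlaps was not tested.

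Marker miRNAs fixed for male germ cells were all present, 7 of 7 in each library, with 424 mouse and 6785 rat reads. Those of other cells were present too: epithelium had 612 and 288 reads over 6 markers (6 and 5 with a read), stroma and muscle 2414 and 845 over 6 (4 with a read in each, almost all miR-143-3p), and blood 42 and 3 over 6 (4 and 3 with a read). In the mouse, the stromal and the epithelial sums were thus above the germ cell sum, and in the rat both were below it. Single markers carry these sums and not all go the same way: miR-34c-5p had 5785 of the 6785 rat germ cell reads, while miR-871-3p of that list had 53 mouse reads and 1 rat read, and epithelial miR-200a-3p had 3 and 18. The part of other cells in the mouse to rat ratios of the lysine tRNA reads was not tested. Listed identifiers ran from 4 to 167458 for the mouse and from 1 to 200389 for the rat, so reads under the identifiers in between that are not listed were not analysed here and every share above is one of listed reads.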

How the data were processed

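Small RNA of 18 to 45 nt from cauda sperm was sequenced, with 1 library for each of 2 species. The deposited values are counts: the authors gave, per distinct sequence, its number of reads, the strand, a database entry and its mismatches, at most 2, per the file headers. Bowtie 0.12.7, mm9 and rn5 are named without a role, per the submitters' processing notes, while the sources used here give neither adapter trimming nor the order of databases. The tables hold 691381 mouse and 2102735 rat reads, so 0 reads allow a share of up to 0.000434% and 0.000143% (3 counts). In the mouse, 2535 sequences whose counts had become dates were left out, as was a total line.

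Minus-strand sequences were turned back. Members were reads whose first 18 nt lay within 1 mismatch of either 5′ end, which was itself read from the tables. Whole tRNAs were joined from overlapping reads. Named were the 3 leading sequences per member and library, the leading one across the anticodon, the 2 largest ratios each way at a mean of at least 10 RPM and the 3 starts most alike in length. Members, lists and tests were chosen with earlier results of these data known. With 1 library per species, no test across sequences was run. The assignment and the intervals were tested on simulated data. Simulated starts held no error at the base that separates the members, so errors there were not tested. Python 3.11.15, pandas 2.3.3, numpy 2.4.6, scipy 1.17.1 and matplotlib 3.10.9 were used.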

Additional observations from a re-analysis of the deposited data

Results flagged for a closer look

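Mouse lines whose counts had become dates held member reads that enter no value above. With the month read as the count, they add 41 CTT reads in 5 sequences and 49 TTT reads in 6. Reads as close to CTT as to TTT, which belong to neither, numbered 4 in the mouse, above the limit of 3 counts, and 2 in the rat.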

How the results depend on the processing

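No paired analysis was possible because there was 1 library per species. The 22 results were recomputed 96 times in all, and 48 values stayed within the counting interval or within 1.5 times the count. With 1 choice changed at a time no ratio crossed 1, but TTT per tRNA-labelled read up to 32 nt, with 2 changed, did (0.978). In ratios scaled to tRNA-labelled reads, members kept any label while the total held tRNA labels only. The cause of a change was not tested, except that a narrower setting holds fewer reads by construction. Values that moved follow by setting.

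With 0 mismatches in the start, CTT was 1.13% of mouse reads, TTT 0.0245% of rat reads and the CTT to TTT ratio 3.45 in the rat. With months read as counts, mouse CTT was 1.13%. Over sequences of at least 10 reads, CTT was 1.12% (mouse) and 0.0827% (rat), TTT 0.110% and 0.0239%, and the CTT to TTT ratio 10.15 and 3.46. Under tRNA labels alone, rat CTT was 0.0744% and rat TTT 0.0144%, the mouse to rat ratio 15.5 for CTT and 8.71 for TTT, and the CTT to TTT ratio 5.16 in the rat. Up to 32 nt, added after the data had been seen, mouse CTT was 0.295%, rat CTT 0.0723% and mouse TTT 0.0920%; the mouse to rat ratios were 4.08 and 3.23, the CTT to TTT ratios 3.20 and 2.54, and reads of 28 to 36 nt 99.6% of mouse CTT and 86.5% of mouse TTT reads. Scaled to miRNA reads, the mouse to rat ratios were 4.87 for CTT and 1.60 for TTT. Scaled to tRNA-labelled reads, they were 4.06 and 1.33, and 3 of 10 CTT and 3 of 4 TTT sequences were at least 2-fold higher in the rat, against 58.3% of all 3450. With members and totals at 28 to 36 nt, they were 11.3 and 8.91, and the CTT to TTT ratios were 10.2 and 8.07. Counted as distinct sequences, the CTT to TTT ratios were 2.69 and 1.14 (interval 0.767 to 1.69, which holds 1), and 28 to 36 nt lengths 93.8% and 82.8% of CTT and 68.1% and 15.7% of TTT in mouse and rat. A window of 30 to 35 nt gave 96.5% for mouse and 68.5% for rat CTT. Without the most abundant sequence, 28 to 36 nt reads were 98.6% of mouse CTT, 75.9% of mouse TTT and 7.82% of rat TTT reads. At a mean of at least 2 RPM, 12 of 17 CTT and 2 of 12 TTT sequences were at least 2-fold higher in the mouse (40.1% of all 9500) and 5 of 12 TTT sequences in the rat (33.7% of all).

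Depth limits the short CTT reads (9 in the mouse), the rat A29 reads of 31 nt and the reads across base 58 of mouse CTT.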
